A study of Mus musculus with 12 samples.

Results

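Keratins are the intermediate filament proteins of epithelial cells. The members described here are all genes whose symbol is Krt, a number and at most 1 letter, which leaves out the keratin-associated proteins. There were 51 of them among 23235 gene symbols, 28 of type I and 23 of type II. They were sorted by their known sites of use into 10 interfollicular keratins, 4 stress keratins, 4 mucosal keratins, 6 simple epithelial keratins, 8 of the inner root sheath and companion layer, 15 of the hair shaft and 4 others. Of the 51, 47 reached 1 FPKM (fragments scaled to transcript length and to library depth, so that levels can be compared between genes) in at least 1 library. Krt9, Krt20, Krt76 and Krt222 did not.

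RNA was sequenced from 4 groups of FVB/NJ mice, with 3 libraries in each. CWO papillomas and vehicle papillomas were pre-malignant skin tumours. They were raised on mice shaved at 6 to 7 weeks, in the resting phase of the hair cycle, by a single 400 nmol dose of the mutagen DMBA and 10 nmol of the tumour promoter TPA given repeatedly each week. The tumours then received 20% camphor white oil (CWO), an essential oil of the camphor tree, or vehicle for 6 weeks, and each library pools 4 tumours of similar size from 1 mouse. CWO epidermis and vehicle epidermis came from skin shaved a week earlier and painted with 400 µL of 20% CWO or of acetone vehicle 24 h before collection, and the epidermis was split off with ammonium thiocyanate. Of 5 mice treated, the 3 samples with the best RNA in each treatment were sequenced. All papillomas had been exposed to DMBA and TPA and no epidermis had, so tumour tissue, carcinogen exposure, time since treatment and method of dissection cannot be told apart between the tissues.

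Keratins work in pairs of 1 type I (acidic) and 1 type II (basic to neutral) chain, which combine into a filament. Basal keratinocytes, the dividing cells, use Krt5 with Krt14. Cells that leave the basal layer to differentiate switch to Krt1 with Krt10, and wounded or hyperproliferative epidermis adds Krt6a, Krt6b, Krt16 and Krt17. Krt4 and Krt13 belong to the lining of mouth and oesophagus, Krt8 and Krt18 to simple epithelia, Krt71 with Krt25, Krt27 and Krt28 to the inner root sheath that moulds the growing hair, and the Krt31 to Krt40 and Krt81 to Krt86 genes to the hair shaft itself. In mice, Krt13 has long been known to appear in chemically induced skin tumours.

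The promoters of 7 transcription starts are printed to set keratins that differed between the tissues beside a keratin whose levels overlapped. The direction of that keratin depended on the epidermis libraries used. They comprise both RefSeq starts of Krt13, a mucosal keratin found in papillomas and near 0 in epidermis, then 3 inner root sheath keratins that were higher in papillomas, a hair shaft keratin that did not follow them, and Krt77, the epidermal keratin with the largest fall. Krt4, Krt6a, Krt6b, Krt15 and Krt16, which also differed widely, have no entry in the RefSeq table used here. Each run is 300 bases from RefSeq on build GRCm38.p6, from 250 bases before the start to 50 after it, written 5′ to 3′ on the gene's strand. Capitals mark 3 short motifs, looked for on both strands.
Krt13 upstream start, chr11:100121517-100121816, minus strand: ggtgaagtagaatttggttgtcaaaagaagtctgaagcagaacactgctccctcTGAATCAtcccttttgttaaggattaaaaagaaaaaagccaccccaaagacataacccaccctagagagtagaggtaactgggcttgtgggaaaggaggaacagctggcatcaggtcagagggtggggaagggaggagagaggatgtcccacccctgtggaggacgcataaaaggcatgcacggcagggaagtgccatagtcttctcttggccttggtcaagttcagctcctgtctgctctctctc
Krt13 downstream start, chr11:100120528-100120827, minus strand: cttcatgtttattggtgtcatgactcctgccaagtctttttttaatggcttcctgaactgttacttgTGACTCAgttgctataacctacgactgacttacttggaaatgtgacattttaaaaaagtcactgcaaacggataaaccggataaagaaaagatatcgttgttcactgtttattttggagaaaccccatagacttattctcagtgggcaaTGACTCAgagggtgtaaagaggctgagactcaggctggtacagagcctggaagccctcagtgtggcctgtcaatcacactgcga
Krt25, chr11:99322902-99323201, minus strand: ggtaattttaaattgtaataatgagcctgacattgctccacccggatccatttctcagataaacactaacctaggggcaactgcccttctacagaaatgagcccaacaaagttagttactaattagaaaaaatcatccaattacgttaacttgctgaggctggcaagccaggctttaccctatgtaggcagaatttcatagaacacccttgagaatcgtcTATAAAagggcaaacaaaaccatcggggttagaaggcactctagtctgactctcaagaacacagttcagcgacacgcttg
Krt27, chr11:99351069-99351368, minus strand: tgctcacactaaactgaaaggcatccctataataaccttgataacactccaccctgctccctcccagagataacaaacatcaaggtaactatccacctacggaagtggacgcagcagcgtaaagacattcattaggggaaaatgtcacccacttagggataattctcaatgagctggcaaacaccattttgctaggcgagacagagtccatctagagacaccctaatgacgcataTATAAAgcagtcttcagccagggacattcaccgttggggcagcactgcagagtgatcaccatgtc
Krt71, chr15:101743048-101743347, minus strand: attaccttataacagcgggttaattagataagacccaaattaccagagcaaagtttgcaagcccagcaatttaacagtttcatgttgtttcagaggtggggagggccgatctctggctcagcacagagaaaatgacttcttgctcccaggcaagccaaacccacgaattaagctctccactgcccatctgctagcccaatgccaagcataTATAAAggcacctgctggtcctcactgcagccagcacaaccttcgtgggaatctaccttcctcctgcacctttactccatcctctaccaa
Krt31, chr11:100050502-100050801, minus strand: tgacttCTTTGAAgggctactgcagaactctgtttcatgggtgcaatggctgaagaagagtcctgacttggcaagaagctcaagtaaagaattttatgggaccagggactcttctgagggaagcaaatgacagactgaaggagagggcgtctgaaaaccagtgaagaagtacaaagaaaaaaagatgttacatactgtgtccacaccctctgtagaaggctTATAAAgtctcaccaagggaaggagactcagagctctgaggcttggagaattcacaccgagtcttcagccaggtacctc
Krt77, chr15:101869656-101869955, minus strand: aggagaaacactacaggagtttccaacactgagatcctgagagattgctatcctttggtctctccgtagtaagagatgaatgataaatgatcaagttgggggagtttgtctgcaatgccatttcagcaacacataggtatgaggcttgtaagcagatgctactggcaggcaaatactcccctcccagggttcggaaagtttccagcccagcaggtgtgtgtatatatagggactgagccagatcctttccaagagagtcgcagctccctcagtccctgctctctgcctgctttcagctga

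The motifs searched were TATAAA, the core of the TATA box; CTTTGAA, the core bound by the hair follicle factor Lef1; and TGANTCA, the core bound by AP-1 factors, of which Fosl1 is one. The upstream Krt13 start had 1 TGANTCA match at -196 relative to the start, and the downstream start had 2, at -183 and -34. TATAAA stood at -30 in Krt25, -15 in Krt27, -40 in Krt71 and -29 in Krt31, and Krt31 also had CTTTGAA at -244. The Krt77 window held none of the 3 as written. Variants of them, such as the run tatatata in that window, were not searched. RefSeq promoters were found for 34 of the 51 keratins, 35 promoters in all, of which 18 held TATAAA (51.4%), 6 held CTTTGAA (17.1%) and 2 held TGANTCA (5.71%), the last both of Krt13. Over all 32851 promoters of that length the shares were 13.6%, 5.14% and 7.81%. A match describes letters in a window and not a site in use.

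Libraries held 11.1 to 24.6 M (mega) fragments. Replicates of papilloma are separate mice per the labels, and those of epidermis are separate samples; where samples are not separate animals, p-values measure only the spread between samples. The basal and suprabasal pairs that define keratinocytes were high throughout, since Krt5, Krt14, Krt1 and Krt10 each had at least 2051 FPKM in all 12 libraries. Other cell types were also present. The 15 skeletal muscle genes summed to 9.54 to 434 FPKM in papillomas, to 3219 to 4182 in CWO epidermis, and to 11991, 18879 and 3825 in vehicle epidermis 1, 2 and 3. All 15 fell in papilloma against epidermis under either treatment, where 70.2% of all genes passed under vehicle and 68.8% under CWO. Between the tissues, 10 of 12 dermal fibroblast and matrix genes rose and 1 fell, 11 of 12 sebaceous gland genes fell and 1 rose, and 6 of 12 leukocyte genes rose and 6 fell, with the same counts under CWO and under vehicle. Melanocyte genes rose in 1 of 4 tested under vehicle and 0 of 4 under CWO. Some listed genes entered a fit through 1 tissue alone, so their direction was fixed and their calls are a description. Examples under both treatments are Ttn, through epidermis, and Cpa3, through papillomas. The part of these other cells in any keratin difference was not tested. In bulk tissue, fewer cells of a type and less RNA per cell cannot be told apart.

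The type II genes around Krt6a could not be read in every tumour. In CWO papillomas 1 and 3 and in vehicle papillomas 2 and 3 the deposited status of Krt6a, Krt6b, Krt75, Krt82, Krt84 and Krt85 was other than OK and the values were treated as missing. The deposited locus of Krt85 ran from 101346119 to 101521940 on chromosome 15 (mm9), 175822 bases that lie over Krt84, Krt82, Krt75 and Krt6b and the start of Krt6a, so the levels given for Krt85 are uncertain. CWO papilloma 2 and vehicle papilloma 1 are therefore the only tumours with every type II keratin.

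**Figure D1:**
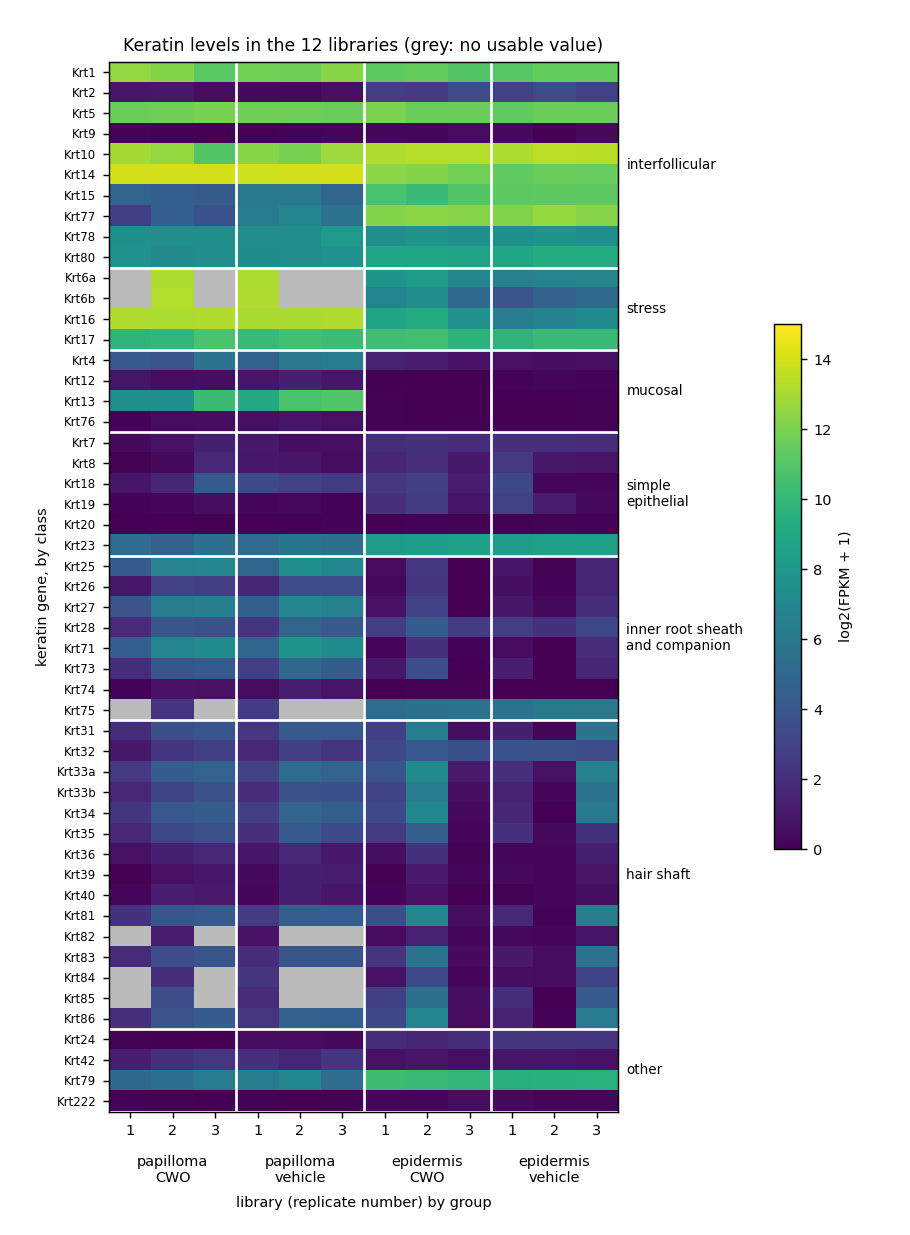
Level of every keratin in every library, as log2(FPKM + 1), with genes in rows grouped by class and libraries in columns grouped as CWO papilloma, vehicle papilloma, CWO epidermis and vehicle epidermis. Grey cells are missing values. The Krt13, Krt16, Krt25, Krt27 and Krt71 rows are higher in the papilloma columns, and the Krt77, Krt15 and Krt79 rows are higher in the epidermis columns.

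Papillomas and epidermis were both rich in keratin RNA, but they held different keratins. All keratins together made 9.81% of summed FPKM in CWO papilloma 2 and 9.11% in vehicle papilloma 1, against 4.50% to 4.97% in CWO epidermis and 4.40% to 5.13% in vehicle epidermis. The summed type II level was 0.824 of the summed type I level in CWO papilloma 2 and 0.836 in vehicle papilloma 1, against 0.696 to 0.739 in CWO epidermis and 0.696 to 0.759 in vehicle epidermis. By mean level the order in papillomas of both treatments began with Krt14, at 16895 ± 159.9 FPKM in CWO papillomas and 15781 ± 392 in vehicle papillomas (SD, n = 3 each), followed by Krt6a, Krt6b and Krt16 at levels that lay close together. In epidermis it began with Krt10, at 9975 ± 451 FPKM under CWO and 10731 ± 1353 under vehicle, followed by Krt77 at 5053 ± 375 under CWO and 5409 ± 1032 under vehicle (SD, n = 3 each).

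The type I keratins had a value in every library, so their make-up can be given for all 12. Krt14 was 47.1% to 53.5% of type I FPKM in CWO papillomas and 43.9% to 49.5% in vehicle papillomas, against 20.5% to 28.5% in CWO epidermis and 15.4% to 16.9% in vehicle epidermis. Krt16 was 27.0% to 29.4% in CWO papillomas and 26.3% to 27.6% in vehicle papillomas, against 1.12% to 3.20% in CWO epidermis and 0.494% to 0.803% in vehicle epidermis. Krt10 ran the other way, at 6.46% to 22.5% in CWO papillomas and 12.5% to 19.7% in vehicle papillomas, against 51.0% to 59.3% in CWO epidermis and 59.5% to 61.4% in vehicle epidermis. Krt15 was 0.0623% to 0.0777% and 0.0792% to 0.200% of type I FPKM in CWO and vehicle papillomas, against 6.33% to 11.9% and 13.0% to 15.2% in CWO and vehicle epidermis. In each of the 4 type I keratins the papillomas and the epidermis libraries did not overlap.

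**Figure D2:**
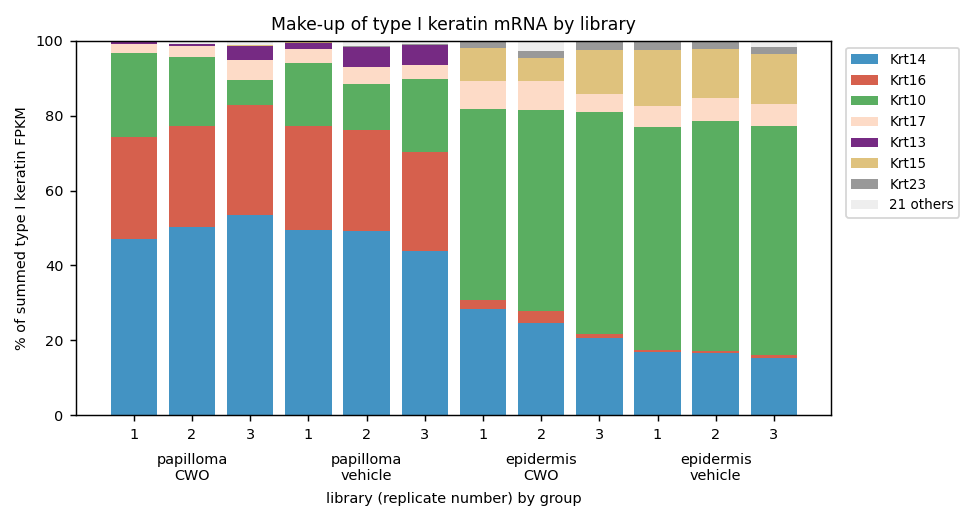
Share of summed type I keratin FPKM, in percent, taken by each main type I keratin in each of the 12 libraries, drawn as stacked bars that start at 0, papillomas left of epidermis and CWO left of vehicle. Krt14 and Krt16 fill most of every papilloma bar, and Krt10 is over 50% of every epidermis bar.

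The comparison of papilloma with epidermis asks which keratins mark the tumour, and it was made separately under vehicle and under CWO with libraries that the other comparison does not use. Under vehicle 12 of 35 keratins tested were higher and 10 lower in papilloma (limma, Benjamini-Hochberg adjusted p under 0.05 over all genes), against 31.8% of 12793 genes higher and 38.3% lower, 70.2% in all. Under CWO 8 of 36 keratins were higher and 9 lower, against 29.1% of 12694 genes higher and 39.7% lower, 68.8% in all. So the share of keratins that passed was under the share of all genes in each comparison. The median log2 change was 1.07 over the 35 keratins and -0.07 over all genes under vehicle, and -0.01 over the 36 keratins and -0.12 over all genes under CWO. All 17 keratins that passed under CWO also passed under vehicle, in the same direction, and 0 of the 35 keratins tested in both passed in opposite directions. The libraries of the 2 tissues did not overlap for 21 of 35 keratins under vehicle (74.5% of all genes) and for 18 of 36 under CWO (74% of all genes). A keratin entered the fit with an FPKM of at least 1 in 3 of the 6 libraries. Krt13 and Krt42 under both treatments and Krt4 under vehicle entered through papillomas alone. Krt2 and Krt24 under both treatments entered through epidermis alone. These 5 had to differ, so their calls are a description. Krt25, Krt27 and Krt71 under both treatments, Krt26, Krt35 and Krt73 under vehicle and Krt4 under CWO reached 1 FPKM in fewer than 3 epidermis libraries. They entered only with papillomas counted, and Krt7 only with epidermis counted, so the filter favoured the direction of their calls. Log2 changes are of FPKM + 1, so those of weakly expressed genes are understated.

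**Figure D3:**
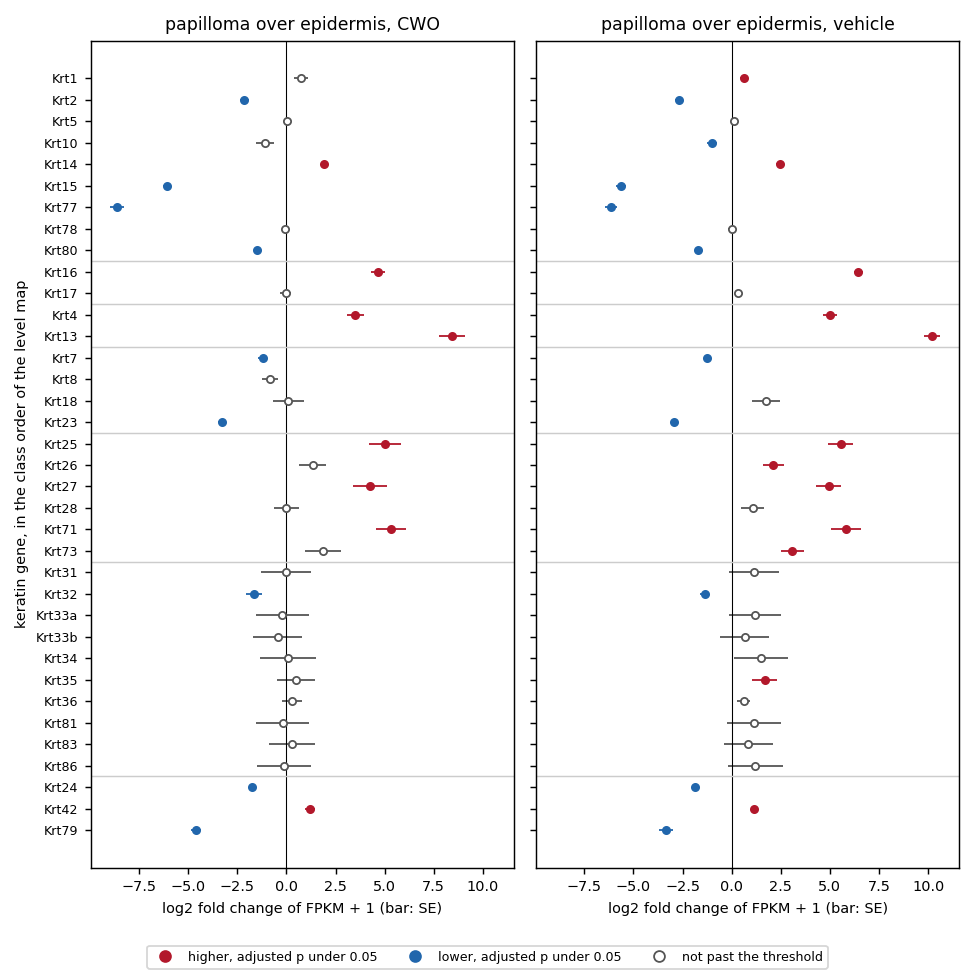
Log2 fold change of FPKM + 1 in papilloma over epidermis for each keratin tested under CWO (left) and under vehicle (right), with bars of 1 SE; points right of 0 are higher in papilloma and filled points passed an adjusted p of 0.05. Krt13, Krt16, Krt71 and Krt25 lie farthest right in the vehicle panel, Krt77 and Krt15 lie farthest left in both, and most hair shaft keratins lie near 0 with long bars.

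Among the interfollicular keratins the basal pair split. Krt14, the type I partner, had 16762, 16850.0 and 17073 FPKM in CWO papillomas and 15369, 16149 and 15824 FPKM in vehicle papillomas. It had 5279, 4693 and 3559 FPKM in CWO epidermis and 2605, 3164 and 2876 FPKM in vehicle epidermis. No papilloma was near the epidermis range, and Krt14 rose by a log2 fold change of 2.46 (SE 0.182, adjusted p = 8.99e-06) under vehicle and 1.92 (SE 0.192, adjusted p = 4.03e-05) under CWO. Krt5, the type II partner, had 3142, 3401 and 4096 FPKM in CWO papillomas and 3252, 3313 and 3074 FPKM in vehicle papillomas. Its epidermis levels were 4138, 3117 and 3191 FPKM in CWO epidermis and 2580.2, 3173 and 3216 FPKM in vehicle epidermis. The tissues overlapped, with log2 changes of 0.11 (SE 0.158, adjusted p = 0.553) under vehicle and 0.03 (SE 0.175, adjusted p = 0.889) under CWO. The FPKM ratio of Krt5 to Krt14 was accordingly 0.187 to 0.240 in CWO papillomas and 0.194 to 0.212 in vehicle papillomas, against 0.664 to 0.897 in CWO epidermis and 0.990 to 1.12 in vehicle epidermis.

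Krt15, a keratin of basal cells and of the hair follicle bulge where stem cells lie, fell in papilloma under both treatments. It had 27.7, 20.9 and 20.6 FPKM in CWO papillomas and 62.1, 62.6 and 28.5 FPKM in vehicle papillomas. The epidermis values were 1641, 1202 and 2064 FPKM in CWO epidermis and 2343, 2466 and 2499.8 FPKM in vehicle epidermis, so the lowest epidermis library was far above the highest papilloma. The log2 change was -5.63 (SE 0.273, adjusted p = 1.14e-06) under vehicle and -6.07 (SE 0.201, adjusted p = 2.01e-07) under CWO.

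The suprabasal pair shifted in opposite directions under vehicle. Krt10, the type I partner, had 8028, 6199.9 and 2061 FPKM in CWO papillomas and 5227, 4114 and 7084 FPKM in vehicle papillomas. It had 9457, 10190.0 and 10279 FPKM in CWO epidermis and 9174, 11631 and 11386 FPKM in vehicle epidermis. CWO papilloma 3 was the lowest library and the tissues did not overlap. Krt10 fell by 1.00 on the log2 scale under vehicle (SE 0.251, adjusted p = 0.00712), and under CWO the change of -1.09 did not pass (SE 0.445, adjusted p = 0.0562). Without CWO papilloma 1 it did pass (-1.48, adjusted p = 0.0152), as it did in a fit of all 12 libraries and with limma-voom. Krt1, the type II partner, had 6114, 4773 and 2248 FPKM in CWO papillomas and 3635, 3472 and 5153 FPKM in vehicle papillomas. Epidermis libraries had 2499, 2753 and 2051 FPKM in CWO epidermis and 2224, 2853 and 2772 FPKM in vehicle epidermis. CWO papilloma 3 lay within the epidermis range and the other papillomas above it. Under vehicle the rise was 0.63 (SE 0.205, adjusted p = 0.0238), and the call was lost in 5 of 18 alternatives. Adjusted p was 0.0597 without vehicle epidermis 1 alone and 0.0896 without vehicle papilloma 3. Without vehicle epidermis 1 and 2, which leaves 1 library in that group, the rise was 0.54. Under CWO the change of 0.74 did not pass (adjusted p = 0.0823), but did without CWO papilloma 3 (1.16, adjusted p = 0.00146) and in a fit of all 12 libraries. The FPKM ratio of Krt1 to Krt10 was 0.762 to 1.09 in CWO papillomas and 0.695 to 0.844 in vehicle papillomas, against 0.200 to 0.270 in CWO epidermis and 0.242 to 0.245 in vehicle epidermis.

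Krt77, a type II keratin of suprabasal mouse epidermis, had the largest fall of the keratins tested. Papillomas had 5.82, 21.5 and 12.9 FPKM in CWO papillomas and 72.2, 117 and 48.2 FPKM in vehicle papillomas. The levels in epidermis were 4683, 5434 and 5042 FPKM in CWO epidermis and 4639.7, 6582 and 5005 FPKM in vehicle epidermis, which put Krt77 next to Krt10 there. The tissues did not overlap, and the log2 change was -6.15 (SE 0.295, adjusted p = 1.08e-06) under vehicle and -8.62 (SE 0.362, adjusted p = 4.94e-07) under CWO. Its neighbour Krt1 lies close by on the same chromosome (chromosome 15, 101690287 to 101700049 for Krt77 and chromosome 15, 101675857 to 101681217 for Krt1, mm9) and did not fall with it.

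Krt2 and Krt80 are keratins of the upper, more differentiated layers. Krt2 had 0.858, 0.962 and 0.408 FPKM in CWO papillomas and 0.298, 0.251 and 0.511 FPKM in vehicle papillomas. Epidermis had 6.00, 5.02 and 9.86 FPKM in CWO epidermis and 6.89, 10.4 and 6.47 FPKM in vehicle epidermis. All 6 papillomas were under 1 FPKM and all 6 epidermis libraries above 5. Krt2 entered each fit through epidermis alone, so its log2 changes of -2.70 (SE 0.182) under vehicle and -2.16 (SE 0.23) under CWO are a description. Krt80 had 192, 136 and 162 FPKM in CWO papillomas and 154, 161 and 190.1 FPKM in vehicle papillomas. In epidermis the values were 453, 469.6 and 434 FPKM in CWO epidermis and 469, 634 and 594 FPKM in vehicle epidermis. It fell, with log2 changes of -1.74 (SE 0.141, adjusted p = 1.44e-05) under vehicle and -1.48 (SE 0.134, adjusted p = 2.37e-05) under CWO. Krt78, of the upper layers as well, ranged from 162 to 278 FPKM over papillomas and from 160.4 to 220.5 over epidermis, and did not pass in either comparison. Krt9, the keratin of palms and soles, did not exceed 0.130 FPKM in papillomas or 0.332 in epidermis.

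Krt16, the type I stress keratin, rose in papilloma under both treatments. Papillomas had 9654, 9069.9 and 9392 FPKM in CWO papillomas and 8573, 8876 and 9485 FPKM in vehicle papillomas. Epidermis had 438, 606 and 194 FPKM in CWO epidermis and 76.8, 93.7 and 150.1 FPKM in vehicle epidermis. Within epidermis all 3 CWO libraries were above all 3 vehicle libraries, and every papilloma was above all of them. The log2 rise in papilloma was 6.44 (SE 0.227, adjusted p = 2.87e-07) under vehicle and 4.65 (SE 0.359, adjusted p = 9.8e-06) under CWO.

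Krt6a, the type II partner of Krt16, was readable at 9225 FPKM in CWO papilloma 2 and 9169 in vehicle papilloma 1. It had 219, 262 and 119.6 FPKM in CWO epidermis and 91.2, 104 and 115 FPKM in vehicle epidermis. The FPKM ratio of Krt6a to Krt16 in these 2 tumours was 1.02 and 1.07, against 0.500, 0.432 and 0.616 in CWO epidermis and 1.19, 1.11 and 0.764 in vehicle epidermis. Krt6b had 9732 FPKM in CWO papilloma 2 and 9353 in vehicle papilloma 1. It had 109.6, 171 and 34.4 FPKM in CWO epidermis and 14.2, 23.2 and 35.0 FPKM in vehicle epidermis. Both genes were thus of nearly the same level in the 2 tumours while Krt6a was the higher of them in every epidermis library. With 1 readable tumour per treatment neither was tested between the tissues. The Krt6a and Krt6b transcripts are 93% identical over 2224 aligned bases and share a run of 280 bases, so the split of reads between them is uncertain.

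Krt17, the other type I stress keratin, did not pass. Papillomas had 871, 977 and 1723 FPKM in CWO papillomas and 1151, 1491 and 1308 FPKM in vehicle papillomas. Epidermis had 1343, 1427 and 836 FPKM in CWO epidermis and 864, 1190.1 and 1092 FPKM in vehicle epidermis, and the ranges overlapped. The log2 change was 0.33 (SE 0.164, adjusted p = 0.102) under vehicle and -0.04 (SE 0.291, adjusted p = 0.904) under CWO. Without vehicle epidermis 2 it passed under vehicle (0.43, adjusted p = 0.0455). Krt16 and Krt14 transcripts are 83.5% identical with a longest shared run of 134 bases.

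The mucosal keratins were found mainly in papillomas. Krt13 had 179.6, 187 and 1254 FPKM in CWO papillomas and 529, 1680.5 and 1918 FPKM in vehicle papillomas. It was listed at 0.0510, 0 and 0 FPKM in CWO epidermis and 0, 0 and 0.0741 FPKM in vehicle epidermis, which corresponds to at most 2 fragments in a library, against 3482 to 41369 fragments in papillomas. Krt13 entered each fit through papillomas alone, so its changes are a description. The fitted log2 changes of 10.19 (SE 0.423) under vehicle and 8.42 (SE 0.651) under CWO depend on the pseudocount. They became 13.28 and 11.57 with a pseudocount of 0.1, and 8.63 and 6.87 with a pseudocount of 3. Within papillomas Krt13 was uneven, since CWO papillomas 1 and 2 held at most 187 FPKM, and vehicle papillomas 2 and 3 and CWO papilloma 3 at least 1254. Krt13 has both promoters with TGANTCA printed above.

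Krt4, the type II partner of Krt13, had 16.6, 14.2 and 51.3 FPKM in CWO papillomas and 24.4, 60.6 and 77.1 FPKM in vehicle papillomas. In epidermis it had 1.58, 1.17 and 0.671 FPKM in CWO epidermis and 0.564, 0.472 and 0.553 FPKM in vehicle epidermis. The tissues did not overlap and Krt4 rose by 3.51 (SE 0.425, adjusted p = 0.000122) under CWO on the log2 scale. Under vehicle, where Krt4 entered the fit through papillomas alone, the log2 change of 5.02 (SE 0.361) is a description. Its FPKM was 0.0409 to 0.0922 of that of Krt13 in CWO papillomas and 0.0361 to 0.0462 in vehicle papillomas, so the pair was far from even. Krt76, a keratin of the hard palate and other oral lining, had 0.114, 0.339 and 0.384 FPKM in CWO papillomas and 0.557, 0.835 and 0.609 FPKM in vehicle papillomas. It had 0.0804, 0 and 0.0534 FPKM in CWO epidermis and 0, 0 and 0.0778 FPKM in vehicle epidermis. Every papilloma was above every epidermis library, but Krt76 was below the filter, and the exact permutation test gave p = 0.1 under each treatment, the smallest that 3 against 3 allow. Krt12, the corneal keratin, was also below the filter, at 0.397 to 1.53 FPKM in papillomas and 0.0335 to 0.221 in epidermis, with p = 0.1 by the same exact test in each comparison.

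The simple epithelial keratins were low, apart from Krt23. Krt23 had 40.0, 23.6 and 43.2 FPKM in CWO papillomas and 37.1, 54.8 and 46.3 FPKM in vehicle papillomas. Epidermis had 308, 336 and 384 FPKM in CWO epidermis and 309, 387 and 372 FPKM in vehicle epidermis, all above every papilloma. It fell, with log2 changes of -2.93 (SE 0.153, adjusted p = 1.54e-06) under vehicle and -3.27 (SE 0.212, adjusted p = 4.01e-06) under CWO. Krt7 had 0.279, 0.690 and 1.47 FPKM in CWO papillomas and 1.04, 0.474 and 0.558 FPKM in vehicle papillomas. In epidermis it had 2.95, 3.44 and 2.82 FPKM in CWO epidermis and 3.10, 3.23 and 2.68 FPKM in vehicle epidermis, and it fell, with log2 changes of -1.26 (SE 0.155, adjusted p = 0.000151) under vehicle and -1.22 (SE 0.222, adjusted p = 0.0013) under CWO, with no overlap between the tissues.

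Krt8 and Krt18, the pair of simple epithelia, did not pass between the tissues, and single libraries weighed heavily. Krt8 had 0.0601, 0.262 and 2.32 FPKM in CWO papillomas and 0.978, 0.755 and 0.385 FPKM in vehicle papillomas. It had 2.05, 3.11 and 1.02 FPKM in CWO epidermis and 4.63, 0.967 and 0.769 FPKM in vehicle epidermis. Krt18 had 0.847, 1.89 and 18.4 FPKM in CWO papillomas and 9.12, 6.66 and 4.90 FPKM in vehicle papillomas. Its epidermis values were 4.12, 6.15 and 1.32 FPKM in CWO epidermis and 7.97, 0.152 and 0.206 FPKM in vehicle epidermis. CWO papilloma 3 was the highest tumour and vehicle epidermis 1 the highest epidermis library in both genes. Krt8 was below the filter under vehicle, and under CWO it had a log2 change of -0.84 (adjusted p = 0.111). Krt8 passed as lower under CWO without CWO papilloma 3 (-1.34, adjusted p = 0.00365) and with limma-voom on recovered fragments. Krt18 under vehicle had a log2 change of 1.73 (SE 0.712, adjusted p = 0.0573). Without vehicle epidermis 1 it was 2.71 (adjusted p = 5.91e-05), and Krt18 passed in 4 of 17 alternatives under vehicle and 0 of 16 under CWO. Krt19, which is found in simple epithelia and in the hair follicle bulge, had 0.124, 0.153 and 0.447 FPKM in CWO papillomas and 0.224, 0.259 and 0.0880 FPKM in vehicle papillomas. It had 3.05, 5.02 and 0.772 FPKM in CWO epidermis and 6.78, 1.17 and 0.246 FPKM in vehicle epidermis and was below the filter in papilloma against epidermis, where the exact permutation test gave p = 0.2 under vehicle and 0.1 under CWO. Krt20 did not exceed 0.119 FPKM in any library.

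Krt79 marks the hair canal and the ducts of sebaceous glands in mouse skin. Papillomas had 31.2, 43.6 and 70.1 FPKM in CWO papillomas and 69.3, 125 and 39.7 FPKM in vehicle papillomas. Epidermis had 1277, 1188 and 950.5 FPKM in CWO epidermis and 684, 729 and 770.5 FPKM in vehicle epidermis. The tissues did not overlap and Krt79 fell, with log2 changes of -3.35 (SE 0.344, adjusted p = 5.1e-05) under vehicle and -4.60 (SE 0.263, adjusted p = 2.09e-06) under CWO. Of 12 sebaceous gland genes 11 fell and 1 rose in each comparison (median log2 change -2.76 under vehicle and -3.56 under CWO). Of all genes 38.3% were lower under vehicle and 39.7% under CWO, with medians of -0.07 and -0.12. Under CWO Scd3 and Mc5r entered the fit through epidermis alone. Any link of these genes to the Krt79 levels was not tested. Krt24 had 0.0649, 0.0401 and 0.0390 FPKM in CWO papillomas and 0.440, 0.339 and 0.242 FPKM in vehicle papillomas. Its epidermis levels were 2.86, 2.08 and 2.73 FPKM in CWO epidermis and 3.72, 3.99 and 3.79 FPKM in vehicle epidermis. It was under 1 FPKM in all papillomas and entered each fit through epidermis alone. The log2 changes of -1.85 under vehicle and -1.76 under CWO are thus a description. Krt42 had 1.44, 3.02 and 4.10 FPKM in CWO papillomas and 3.01, 1.99 and 3.71 FPKM in vehicle papillomas. Its level in epidermis was 0.590, 0.700 and 0.504 FPKM in CWO epidermis and 0.704, 0.814 and 0.673 FPKM in vehicle epidermis, under 1 FPKM throughout. Krt42 entered each fit through papillomas alone, so its log2 changes of 1.15 under vehicle and 1.21 under CWO are a description. Krt222 did not exceed 0.0950 FPKM in papillomas or 0.422 in epidermis.

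Some inner root sheath keratins rose in papillomas while most hair shaft keratins did not pass. Of the 8 sheath and companion layer keratins 6 were tested in each comparison, and 5 rose under vehicle and 3 under CWO, with 0 lower. All that rose had entered the fit only with papillomas counted, which favoured a rise. Of the 15 hair shaft keratins 10 were tested in each, with 1 higher and 1 lower under vehicle and 0 higher and 1 lower under CWO. Of all genes, 31.8% were higher and 38.3% lower under vehicle, and 29.1% higher and 39.7% lower under CWO. The median log2 change was 4.01 for the sheath and 1.13 for the shaft under vehicle, and 3.06 for the sheath and -0.07 for the shaft under CWO, beside -0.07 and -0.12 over all genes.

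Krt71, the type II keratin of the inner root sheath, had 21.4, 108 and 152 FPKM in CWO papillomas and 28.3, 213 and 149 FPKM in vehicle papillomas. Epidermis had 0.201, 3.45 and 0.0857 FPKM in CWO epidermis and 0.368, 0 and 2.81 FPKM in vehicle epidermis. CWO papilloma 1 and vehicle papilloma 1 were the lowest tumours, yet both were above every epidermis library. The log2 rise was 5.82 (SE 0.75, adjusted p = 0.000188) under vehicle and 5.33 (SE 0.758, adjusted p = 0.000315) under CWO. Krt25, a type I partner, had 18.0, 101 and 124 FPKM in CWO papillomas and 27.4, 176 and 118 FPKM in vehicle papillomas. Epidermis libraries had 0.352, 4.43 and 0 FPKM in CWO epidermis and 0.854, 0.0630 and 1.96 FPKM in vehicle epidermis. It rose by 5.55 (SE 0.645, adjusted p = 0.000104) under vehicle and 5.00 (SE 0.805, adjusted p = 0.000639) under CWO, with the same order of tumours within each group as Krt71 and no overlap between the tissues. The FPKM ratio of Krt71 to Krt25 was 1.07 to 1.22 in CWO papillomas and 1.03 to 1.27 in vehicle papillomas. Krt27, another type I partner, had 13.1, 69.7 and 86.5 FPKM in CWO papillomas and 22.5, 119.9 and 90.5 FPKM in vehicle papillomas. It had 0.678, 6.46 and 0 FPKM in CWO epidermis and 0.871, 0.273 and 2.83 FPKM in vehicle epidermis, below every papilloma, and rose by 4.93 (SE 0.617, adjusted p = 0.000159) under vehicle and 4.25 (SE 0.846, adjusted p = 0.0021) under CWO.

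Krt73, Krt26, Krt28 and Krt74 are further keratins of the inner root sheath. Krt73 had 2.86, 15.2 and 17.8 FPKM in CWO papillomas and 6.02, 29.7 and 20.1 FPKM in vehicle papillomas. Epidermis had 0.985, 11.1 and 0.0289 FPKM in CWO epidermis and 1.41, 0 and 2.06 FPKM in vehicle epidermis. It rose under vehicle by 3.09 (SE 0.576, adjusted p = 0.00149), and under CWO, where CWO epidermis 2 lay among the papillomas, it did not pass (1.86, adjusted p = 0.0982). Krt73 did pass under CWO without CWO epidermis 2 (2.89, adjusted p = 0.00504) and without CWO papilloma 1 (2.59, adjusted p = 0.0337). Krt26 had 0.963, 6.77 and 5.65 FPKM in CWO papillomas and 2.07, 10.3 and 10.1 FPKM in vehicle papillomas. In epidermis it had 0.259, 4.01 and 0 FPKM in CWO epidermis and 0.454, 0.114 and 1.93 FPKM in vehicle epidermis. It rose under vehicle by 2.11 (SE 0.537, adjusted p = 0.0076), and the call was lost in 2 of 17 alternatives. Without vehicle epidermis 1 and 2, which leaves 1 library in that group, the rise was 1.31. Krt26 did not pass under CWO (1.34, adjusted p = 0.111), though it did without CWO papilloma 1 (1.96, adjusted p = 0.0237). Krt28 ranged from 2.55 to 27.5 FPKM in papillomas and from 3.48 to 19.2 in epidermis and did not pass, except under vehicle once vehicle papilloma 1 was left out. Krt74 stayed at 0.104 to 1.16 FPKM in papillomas and 0 to 0.0814 in epidermis, below the filter. Krt75, the companion layer keratin, had 3.72 FPKM in CWO papilloma 2 and 5.25 in vehicle papilloma 1, against 39.1, 45.5 and 47.3 in CWO epidermis and 47.6, 64.2 and 59.9 in vehicle epidermis. These 2 tumours were thus below every epidermis library, with no test.

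In most hair shaft keratins, though not in Krt32, the tissues overlapped and the epidermis libraries differed widely among themselves. The 12 shaft keratins with a value in every library summed to 26.9, 109 and 146 FPKM in CWO papillomas and 38.6, 185 and 146 in vehicle papillomas. They summed to 73.1, 754 and 15.7 FPKM in CWO epidermis and 30.3, 14.4 and 490.1 in vehicle epidermis. CWO epidermis 2 and vehicle epidermis 3 stood above the rest. The 22 other hair follicle genes had a mean log2 level of 3.29 and 3.18 in those 2 libraries and 2.50 to 2.69 in the other epidermis libraries, and their part in the shaft values was not tested. The ratio of these 12 to the 7 sheath keratins other than Krt75, by summed FPKM, was 0.346 to 0.456 in CWO papillomas and 0.320 to 0.427 in vehicle papillomas. It was 2.96 to 15.5 in CWO epidermis and 3.17 to 24.8 in vehicle epidermis. Sheath thus exceeded shaft in all 6 tumours, and shaft exceeded sheath in all 6 epidermis libraries. In vehicle epidermis 2 and CWO epidermis 3, though, most of the shaft sum was Krt32, at 12.1 and 11.8 FPKM. Only 1 and 2 of the 12 shaft keratins reached 1 FPKM there, so the order in these libraries rests on Krt32.

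**Figure D4:**
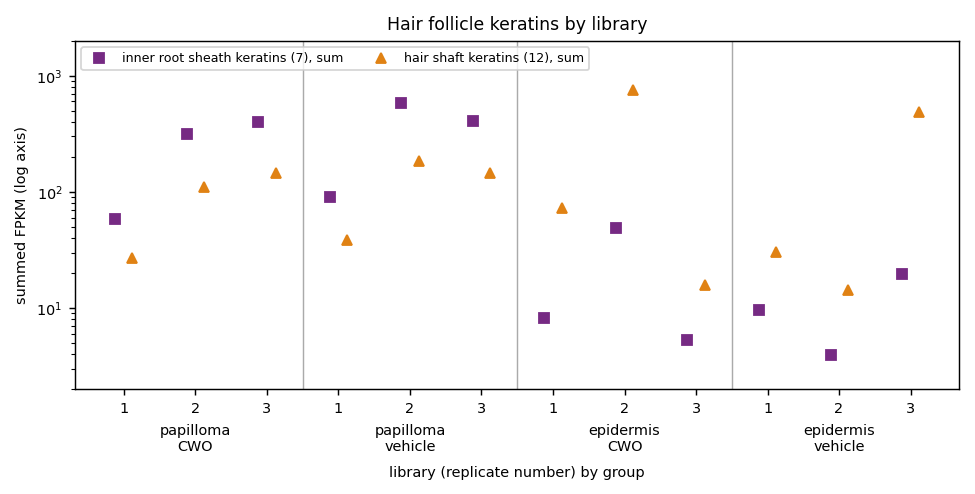
Summed FPKM, on a log axis, of the 7 inner root sheath keratins without Krt75 (squares) and of the 12 hair shaft keratins with a value everywhere (triangles) in each library, papillomas left of epidermis and CWO left of vehicle. The square is above the triangle in all 6 papillomas and below it in all 6 epidermis libraries, and the triangles of CWO epidermis 2 and vehicle epidermis 3 are the highest of all. The triangles of CWO epidermis 3 and vehicle epidermis 2 are mostly Krt32.

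Single shaft keratins followed the same pattern. Krt31, of the hair cortex, had 2.86, 11.7 and 14.5 FPKM in CWO papillomas and 4.20, 18.3 and 15.5 FPKM in vehicle papillomas. It had 5.90, 77.6 and 0.450 FPKM in CWO epidermis and 1.50, 0.149 and 54.7 FPKM in vehicle epidermis, a range wider than that of the tumours, and did not pass (1.13, SE 1.28, adjusted p = 0.453 under vehicle and -0.02, SE 1.25, adjusted p = 0.99 under CWO). Krt33b, a second cortex keratin, had 2.37, 7.57 and 12.1 FPKM in CWO papillomas and 2.81, 12.2 and 11.5 FPKM in vehicle papillomas. Epidermis had 7.16, 78.7 and 0.491 FPKM in CWO epidermis and 1.58, 0.149 and 53.3 FPKM in vehicle epidermis. CWO epidermis 2 and vehicle epidermis 3 were again the highest of all libraries. Krt81, a type II shaft keratin, had 3.53, 14.7 and 18.1 FPKM in CWO papillomas and 5.25, 22.7 and 21.1 FPKM in vehicle papillomas. Its values in epidermis were 11.2, 116 and 0.444 FPKM in CWO epidermis and 2.31, 0.110 and 82.5 FPKM in vehicle epidermis. Krt86, also type II, had 3.06, 13.1 and 18.4 FPKM in CWO papillomas and 4.12, 23.2 and 21.4 FPKM in vehicle papillomas. In epidermis Krt86 had 8.44, 109 and 0.354 FPKM in CWO epidermis and 1.75, 0.104 and 72.5 FPKM in vehicle epidermis. For both genes the tumours lay inside the epidermis range and neither passed in either comparison. Krt33a, Krt34, Krt36 and Krt83 likewise did not pass, at 0.593 to 37.1 FPKM over papillomas and 0 to 153 over epidermis. The Krt81 and Krt86 transcripts are 86.9% identical with a shared run of 374 bases, and those of Krt31 and Krt34 83.7% with a run of 240, so levels within these pairs are uncertain.

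The direction for the shaft under vehicle turned with the epidermis libraries used. Without vehicle epidermis 3, 27 of 32 keratins passed, beside 8389 of 12186 genes. Krt31, Krt33b, Krt81 and Krt86 were then higher in papilloma by 2.81, 2.32, 2.95 and 3.01 (adjusted p 0.00307 to 0.00767). Krt33a, Krt34 and Krt83 passed as higher there too. Without vehicle epidermis 1 and 2, which leaves vehicle epidermis 3 as the only library of its group, the same 4 were lower, as given in the closing section. Krt32, of the hair cuticle, was the shaft keratin that passed in both comparisons. It had 1.05, 3.73 and 6.04 FPKM in CWO papillomas and 2.35, 5.90 and 3.74 FPKM in vehicle papillomas. Epidermis had 8.55, 16.4 and 11.8 FPKM in CWO epidermis and 12.8, 12.1 and 9.70 FPKM in vehicle epidermis, above every papilloma, and Krt32 fell, with log2 changes of -1.38 (SE 0.247, adjusted p = 0.00119) under vehicle and -1.66 (SE 0.418, adjusted p = 0.00729) under CWO. Krt35, of the hair matrix and cuticle, had 2.35, 8.43 and 12.2 FPKM in CWO papillomas and 3.14, 18.4 and 9.51 FPKM in vehicle papillomas. It had 4.77, 22.4 and 0.186 FPKM in CWO epidermis and 3.49, 0.240 and 3.57 FPKM in vehicle epidermis. It rose by 1.68 under vehicle (SE 0.64, adjusted p = 0.0435) although vehicle papilloma 1 lay below 2 vehicle epidermis libraries, and the call was lost in 9 of 17 alternatives. Krt39 and Krt40 were below the filter, at 0.0387 to 1.54 FPKM in papillomas and 0 to 1.16 in epidermis. Krt82, Krt84 and Krt85 had 1.33, 2.91 and 10.7 FPKM in CWO papilloma 2 and 0.691, 3.88 and 2.51 in vehicle papilloma 1, against 0 to 44.8 over all epidermis libraries.

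CWO against vehicle in epidermis asks which keratins responded within 24 h of painting. None of 33 keratins tested passed, with limma at an adjusted p under 0.05, against 2.01% of 12292 genes (1.83% higher and 0.179% lower). At an unadjusted p under 0.05 there were 8 keratins, against 14.7% of all genes, and the groups did not overlap for 7, against 18.7% of all genes. The 8 were Krt16, Krt79, Krt6b, Krt6a and Krt14, with higher means under CWO, and Krt24, Krt15 and Krt75, with lower ones. The 4 stress keratins had a median log2 difference of 1.37, beside 0.02 over all genes, with 3 of 4 at an unadjusted p under 0.05.

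Krt16, with the epidermis values given above, differed by 1.85 (SE 0.402, unadjusted p = 0.00157, adjusted p = 0.0644), higher in 3 of 3 CWO libraries. Krt6b differed by 1.89 (SE 0.54, adjusted p = 0.144), but CWO epidermis 3 lay below vehicle epidermis 3. Krt6a differed by 0.88 (SE 0.261, adjusted p = 0.157) with no overlap between the groups. In all 3 of these genes CWO epidermis 3 was the lowest CWO library. The fourth stress keratin, Krt17, overlapped between the groups, with a difference of 0.17 (SE 0.226, adjusted p = 0.819).

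Without CWO epidermis 3, 4 keratins passed, namely Krt16, Krt6a, Krt6b and Krt79, and without vehicle epidermis 3 Krt16 alone. Calls over all genes rose too, to 329 of 12169 and 685 of 12150, against 247 of 12292 in the main fit. With vehicle epidermis 1 and 2 left out, the libraries highest in skeletal muscle genes, Krt16 differed by 1.31. That leaves vehicle epidermis 3 as the only vehicle library, the one with the highest Krt16 of the vehicle libraries. Such a fit cannot decide whether Krt16 differs without the libraries high in muscle genes. With CWO epidermis 2 and vehicle epidermis 3 left out, the libraries highest in hair shaft keratins, Krt16 (1.77, adjusted p = 0.00510) and Krt6b (1.71, adjusted p = 0.0350) passed of 24. Over all genes 631 of 11906 passed there. In the same epidermis comparison 0 of 15 muscle genes passed but their median log2 difference was -1.28, and 2 of 10 dermal genes, Col1a1 and Col1a2, fell. In the sebaceous gland list Elovl3 rose and Scd3 fell of 12, and of 11 genes in the leukocyte list S100a9 alone rose. Ptprc of that list had 7.42 to 8.39 FPKM in CWO epidermis and 6.68 to 8.90 in vehicle epidermis. Over all genes 1.83% were higher and 0.179% lower. The part of these lists in the keratin differences was not tested.

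The basal type I keratins differed in opposite directions without passing. Krt14 differed by 0.63 (SE 0.195, adjusted p = 0.174) and Krt15 by -0.61 (SE 0.204, adjusted p = 0.209), and for both all 3 CWO libraries lay on 1 side of all 3 vehicle libraries. Krt5 differed by 0.21 (SE 0.183, adjusted p = 0.687), with overlap. Krt79, of the hair canal, had a higher level in all 3 CWO libraries (0.64, SE 0.147, adjusted p = 0.0768), while Krt24 (-0.45, SE 0.141, adjusted p = 0.184) and Krt75 (-0.37, SE 0.138, adjusted p = 0.267) had lower levels in all 3. The suprabasal Krt1, Krt10 and Krt77 differed by -0.11, -0.10 and -0.08 on the log2 scale, with adjusted p of 0.865 to 0.910. No keratin is among the 176 genes of the authors' deposited table for epidermis, whose adjusted p reaches 0.00544 at most.

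**Figure D5:**
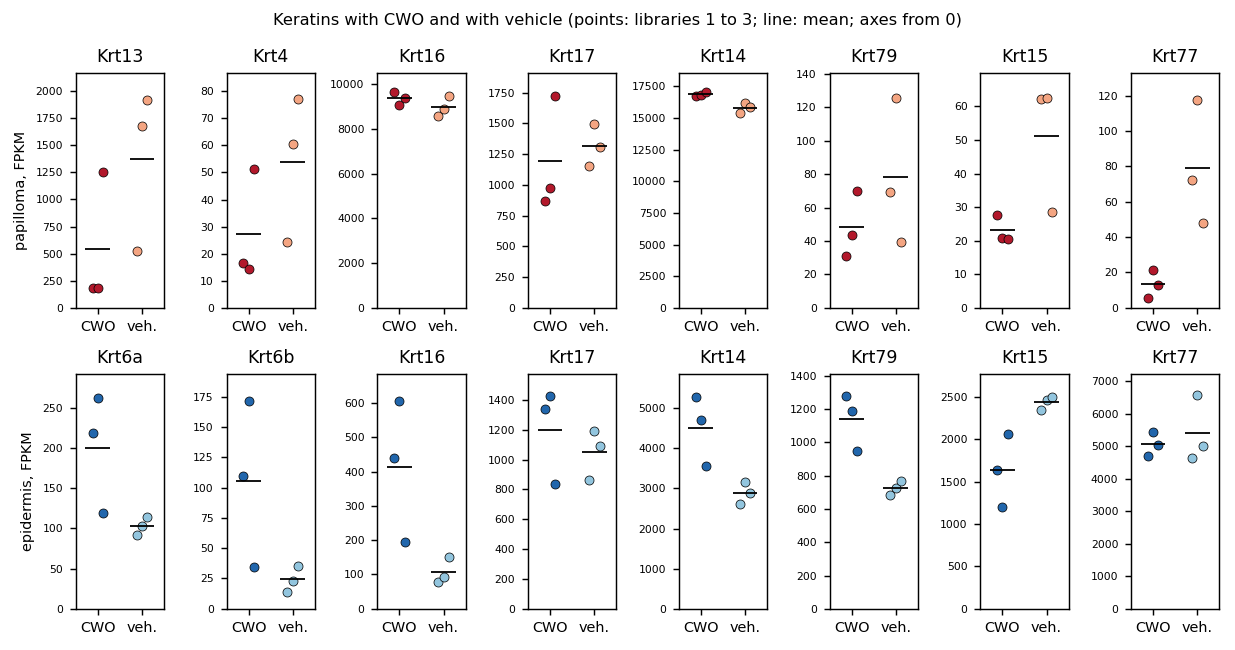
Level of selected keratins in FPKM, on linear axes from 0 that differ between panels, in papilloma (upper row) and epidermis (lower row), with CWO left of vehicle. Each point is 1 library, in the order 1 to 3, and each line the mean of 3. Krt77 and Krt15 are lower in every CWO papilloma than in every vehicle papilloma, and Krt16 and Krt6a are higher in every CWO epidermis library than in every vehicle one.

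CWO against vehicle in papilloma asks which keratins differed after 6 weeks of oil on the tumours. None of 33 keratins tested passed with limma, as was true of all 12147 genes (0%). At an unadjusted p under 0.05 there were 2 keratins, Krt77 and Krt15, against 2.52% of all genes. The groups did not overlap for 3, Krt77, Krt15 and Krt14, against 6.6% of all genes. Krt77 was lower in 3 of 3 CWO papillomas, by -2.55 on the log2 scale (SE 0.454, unadjusted p = 0.000605, adjusted p = 0.9999). Krt15 was lower in 3 of 3 as well, by -1.04 (SE 0.29, unadjusted p = 0.00769, adjusted p = 0.9999). Krt14 differed by 0.10 (SE 0.151), the highest vehicle papilloma being just under the lowest CWO papilloma.

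The mucosal and hair keratins varied widely among tumours of the same treatment. Krt13 differed by -1.77 (SE 0.799, unadjusted p = 0.0587) and Krt4 by -1.04 (SE 0.547), with CWO papilloma 3 within the vehicle range in each. The 6 sheath keratins tested had log2 differences of -0.65 to -0.43 and the 11 shaft keratins -0.44 to -0.01, with CWO papilloma 1 and vehicle papilloma 1 lowest in their groups for Krt25, Krt27, Krt31, Krt33b, Krt71, Krt81 and Krt86. Krt16 differed by 0.06 (SE 0.135) and Krt17 by -0.20 (SE 0.248). In the same comparison none of the genes tested passed in the muscle, dermal, sebaceous, leukocyte or melanocyte lists, although the muscle list had a median log2 difference of -1.92.

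For the genes unreadable in FPKM, the authors' deposited table for papilloma gives mean normalised counts of each group. Krt6a had a mean of 259652 in CWO papillomas and 257978 in vehicle papillomas (log2 0.01 in the authors' deposited table), and Krt6b 277444 in CWO and 274434 in vehicle papillomas (log2 0.02). Krt75 had 295 in CWO and 470.3 in vehicle papillomas (log2 -0.67), and Krt85 165 and 209 (log2 -0.34). In the authors' deposited table, of all 51 keratins, 38 were lower and 13 higher with CWO, 6 had an unadjusted p under 0.05 (Krt77, Krt24, Krt15, Krt76 and Krt12 lower and Krt2 higher), and the lowest adjusted p was 0.264, for Krt77 at a mean of 424 in CWO and 2435 in vehicle papillomas. Its log2 values had the same sign as the fit to FPKM for 31 of the 33 keratins tested here; both use the same libraries.

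The difference of the CWO effect between the tissues was tested over all 12 libraries. None of 39 keratins passed with limma, against 0.743% of 13189 genes (0.0303% higher and 0.713% lower), and 5 had an unadjusted p under 0.05, against 9.9% of all genes. For Krt77 the effect in papilloma minus that in epidermis was -2.46 (SE 0.532, adjusted p = 0.0598), and for Krt16 -1.79 (SE 0.477, adjusted p = 0.135). The others were Krt79 at -1.24, Krt4 at -1.51 and Krt14 at -0.53, with adjusted p of 0.402 to 0.461. Krt77 passed without vehicle papilloma 3 and without CWO papilloma 2, and Krt16 without vehicle epidermis 3 and without CWO epidermis 3. The exposures differed as well, 24 h in epidermis and 6 weeks in papilloma.

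Genes that act with keratins were followed beside them. Of 16 genes that link keratin filaments to junctions, to other filaments or to the cornified envelope, 5 rose and 5 fell in papilloma against epidermis under each treatment, against 70.2% of all genes that passed under vehicle and 68.8% under CWO. Their median log2 change was 0.06 under vehicle and 0.07 under CWO. Pkp2 entered each of these fits through epidermis alone, so its change is a description. Flg2, a filaggrin-like protein of the cornified layer, had 16.6, 13.3 and 10.8 FPKM in CWO papillomas and 17.7, 24.4 and 19.1 FPKM in vehicle papillomas. It had 166, 201 and 346 FPKM in CWO epidermis and 216, 255 and 277 FPKM in vehicle epidermis and fell, with log2 changes of -3.55 (adjusted p = 4.77e-07) under vehicle and -3.98 (adjusted p = 4.47e-06) under CWO. Eppk1, epiplakin, fell, with log2 changes of -1.75 under vehicle and -1.05 under CWO. Plec, which ties keratins to hemidesmosomes, had log2 changes of -0.97 under vehicle and -0.45 under CWO. Under CWO the tissues overlapped for Plec, at 29.8, 28.4 and 35.3 FPKM in papillomas and 48.6, 48.2 and 33.3 in epidermis. Sfn, the 14-3-3 sigma adaptor, rose by 1.37 under vehicle and 1.14 under CWO. None of the 16 passed for CWO against vehicle in epidermis, nor of 15 in papilloma.

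Of 21 regulators of keratin genes tested, 9 rose and 6 fell under vehicle and 9 rose and 7 fell under CWO, close to the 70.2% of all genes that passed under vehicle and the 68.8% under CWO. Pitx1, a homeobox factor known from hind limb and oral epithelium, had 79.8, 79.3 and 118 FPKM in CWO papillomas and 103, 94.0 and 98.4 FPKM in vehicle papillomas. It had 0.201, 0.0984 and 0.0752 FPKM in CWO epidermis and 0.194, 0.446 and 0.201 FPKM in vehicle epidermis. Papillomas and epidermis were far apart, with log2 changes of 6.28 under vehicle and 6.35 under CWO, which are a description because Pitx1 entered each fit through papillomas alone. Nfe2l2, the oxidative stress factor Nrf2, rose by 2.80 and 2.45 under vehicle and CWO. Fosl1, an AP-1 subunit, rose by 3.75 (adjusted p = 2.4e-06) under vehicle and 3.75 (adjusted p = 0.000358) under CWO. It entered both fits only with papillomas counted. Pou2f3, a factor of suprabasal keratinocytes, fell, with log2 changes of -2.76 under vehicle and -2.85 under CWO. None of 20 passed for CWO in epidermis and none of 21 in papilloma.

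The 22 hair follicle genes that are not keratins moved both ways. Of 15 tested, 5 rose and 4 fell under vehicle and 4 rose and 8 fell under CWO, against 31.8% of all genes higher and 38.3% lower under vehicle, and 29.1% higher and 39.7% lower under CWO. Padi3, the enzyme that modifies inner root sheath protein, had 6.95, 23.2 and 30.4 FPKM in CWO papillomas and 21.1, 27.7 and 19.6 FPKM in vehicle papillomas. It had 0.217, 1.75 and 0 FPKM in CWO epidermis and 0.203, 0 and 0.901 FPKM in vehicle epidermis. Under CWO it rose by 3.60 (adjusted p = 0.000407), having entered that fit only with papillomas counted. Under vehicle, where it entered the fit through papillomas alone, the log2 change of 4.16 is a description. Gata3, a factor of inner root sheath and interfollicular epidermis, fell, with log2 changes of -3.09 under vehicle and -3.15 under CWO. Lhx2, a factor of hair follicle stem cells, changed by -2.07 under vehicle, where it entered only with epidermis counted. Its -2.23 under CWO is a description, as it entered there through epidermis alone. Dsc1, a desmosomal cadherin of differentiating layers, rose by 1.52 under vehicle and 1.64 under CWO. Msx1 entered each fit between the tissues through papillomas alone, so its change is a description. None of 13 tested in epidermis and 15 in papilloma passed for CWO.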

How the data were processed

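PolyA RNA was sequenced in 12 libraries, 3 in each of 4 groups. The submitters' processing notes name bcl2fastq 1.8.4, TopHat2 2.0.4, Cufflinks 2.0.2, DESeq and the genome build mm9. The files deposited by the authors give FPKM per gene and library, with an interval and a Cufflinks status. The authors' deposited comparison tables give, per the file headers, group means as a signal of normalised counts, the fold as a ratio and as log2, and p-values before and after adjustment.

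Any value whose status was not OK was treated as missing, and where a symbol had several rows (248 symbols) their FPKM were added up. The deposited interval was read as 2 standard deviations of a count, which turns each FPKM back into fragments and gives a depth of 11.1 to 24.6 M (mega) per library; weakly expressed keratins rest on few of them. Below 500 fragments, 68.2% to 69.5% of these numbers in a library came within 0.02 of a whole number.

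The test was limma (version 3.58.1, R version 4.3.3) with its intensity trend, on log2(FPKM + 1) and fitted to all genes of the groups compared, or to all 12 libraries for the difference of the CWO effects. A gene was tested where 3 or more of the libraries fitted reached 1 FPKM and each group had 2 or more values; microRNA and other small RNA genes were not. The threshold was a two-sided Benjamini-Hochberg adjusted p under 0.05 over all genes tested. Keratins below the filter were tested with a two-sided exact permutation test. The pipeline was tested on simulated data. Alternatives were other pseudocounts, filters, scalings and limma settings, limma-voom on recovered fragments, values used whatever their status, a replicate block, 1 fit of all libraries and each library left out. The members and gene lists were chosen with earlier results of these data known. Values in every library are given for every keratin that passed in any comparison and for a fixed panel, other keratins by range, and up to 4 members with the smallest p for the keratin linker, regulator and hair follicle lists. Promoters are from RefSeq on GRCm38.p6 and transcript likeness from GENCODE transcripts, with no coordinate carried over to mm9. Protein sequences were not used here.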

Additional observations from a re-analysis of the deposited data

How the results depend on the processing

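Of 2621 values of named keratins under the alternatives, 2559 kept their side of the threshold, 17 calls were lost, 41 were gained and 4 turned. Among the 2559 were 149 values that did not pass in either setting and changed sign. The 4 that turned were higher in papilloma under vehicle without passing and passed as lower once vehicle epidermis 1 and 2 were left out: Krt31 at -2.23 (adjusted p = 0.0304), Krt33b at -2.66 (0.0151), Krt81 at -2.49 (0.0242) and Krt86 at -2.39 (0.0466). That choice was made after seeing the data and leaves 1 vehicle epidermis library, assumed to vary like the other group. For CWO in epidermis, the count of 0 became 1 with an FPKM of at least 1 in every library (Krt16), beside 267 of 11394 genes. It was 3 in a fit of all 12 libraries (Krt14, Krt16 and Krt24), beside 665 of 12292 genes. It was 2 with the 2 epidermis libraries highest in hair shaft keratins left out, also chosen after seeing the data, beside 631 of 11906 genes. Leaving out 1 library gave 0 to 4, beside 64 to 685 genes. The main fit called 247 of 12292 genes. For CWO in papilloma the keratin count was 0 in every alternative run, beside at most 4 of 12147 genes. With an FPKM of at least 1 in every library the counts between tissues were 10 under vehicle and 9 under CWO, as only 14 and 15 keratins were then tested. Over all genes 7337 of 10679 and 7152 of 10689 passed. Leaving out 1 library gave 17 to 27 keratins under vehicle, beside 7597 to 8389 genes, and 15 to 18 under CWO, beside 7348 to 7971 genes. For the difference of the CWO effects the count of 0 became 1 (Krt77) with an FPKM of at least 1 in every library, beside 111 of 10442 genes. It was 1 (Krt77) with the replicate block, beside 57 of 13189 genes. Leaving out 1 library gave 0 to 1, beside 34 to 328 genes. Replicate numbers do not pair the libraries: deviations of same-numbered libraries correlated at 0.05, -0.44 and -0.37 in epidermis and 0.26, 0.15 and 0.02 in papilloma, and at -0.22 to 0.24 across tissues. The replicate block gave 23 keratins between tissues under vehicle (Krt18 added), 21 under CWO (Krt1, Krt10, Krt26 and Krt73 added) and 0 for CWO in either tissue. Over all genes it gave 8541 of 12793 and 8410 of 12694 between tissues. For CWO it gave 54 of 12292 in epidermis and 4 of 12147 in papilloma. Median-ratio scaling moved the median over all genes by 0.11 under CWO between tissues, and the 17 keratins called stayed called. The causes of these changes were not tested beyond the number of genes and libraries used. Depth limits the keratins under about 1 FPKM, and no paired result is read from the block.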
